A study of Gallus gallus with 12 samples.

Results

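This account follows 58 chicken genes that stood higher in embryonic red blood cells than in fibroblasts, out of 1354 genes in the embryonic red cell table and 13889 genes in any of the 4 tables deposited. They were chosen by level. A gene is a member when its mean over the 3 embryonic red cell samples exceeds its mean over the 3 fibroblast samples, and a gene absent from the fibroblast table counts as 0 there. The comparison of embryonic red blood cells with fibroblasts therefore selected the members and is given only as a description. Members are numbered by their mean in embryonic red blood cells, from rank 1, the highest, to rank 58.

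Stranded RNA-seq of total RNA depleted of ribosomal RNA covered 12 samples of 4 cell types, each with 3 replicates and each labelled wild type. Adult red blood cells (aRBC) came from hens of 28 to 38 weeks and embryonic red blood cells (eRBC) from embryos at embryonic day 10. The HD3 line consists of erythroblasts grown in culture, and the primary fibroblasts are the cell type from outside the lineage. HD3 cells and fibroblasts were kept in the same medium with fetal bovine and chicken serum. The labels do not say how many birds stand behind a blood sample, which tissue gave the fibroblasts, or whether replicates are separate cultures. The p-value below hence measures only the spread between these samples, which may be technical.

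Avian red blood cells stay nucleated through life, unlike those of mammals, and their chromatin becomes progressively condensed and transcriptionally quiet as they mature. Erythroblasts make transcripts for haemoglobin, haem synthesis and the membrane skeleton, and a few very abundant transcripts then dominate the RNA of the circulating cell. Birds also exchange embryonic for adult globin chains during development. The Ensembl IDs of the files carry no gene names, and the RefSeq gene table used here has an Ensembl ID for 0 of its 25635 genes. No role was assigned to any member, and the labelled cell types were not checked against marker genes. IDs are given for 4 members only, and the others appear by rank, length and value.

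Levels are the authors' FPKM scaled to cell number, called scaled FPKM, a value per length of gene. The scaling factor is not given in the sources used here, so a level set across cell types rests on that factor as well as on the transcript. In these bulk samples fewer cells of a type and less RNA per cell cannot be told apart. Each table stops at an average of 0.3, and a gene that is not listed was not measured as 0. The recovered number of reads on listed genes ranged between 2916238 and 9541884 in adult red blood cells, between 6454390 and 17808106 in embryonic red blood cells, between 9051846 and 19379169 in HD3 cells and between 8853366 and 23384648 in fibroblasts. At these depths, 1 read per kb of gene stood for 0.0416 to 0.110 scaled FPKM in fibroblasts and 0.00884 to 0.0189 in HD3 cells. It stood for 0.000577 to 0.00172 in eRBC and 0.000242 to 0.000869 in aRBC. These constants join depth and the cell-number factor. Equal reads on a gene thus gave far lower levels in both kinds of red blood cells than in HD3 cells or fibroblasts. Some libraries stood apart from their group. Pearson's r of log2(scaled FPKM + 1) across the listed genes was 0.823 and 0.727 between adult replicate 3 and the other adult replicates, against 0.937 between those, and Spearman's rho was 0.350 and 0.182 against 0.783. HD3 replicate 1 had r of 0.90 and 0.905 with the other HD3 replicates, whose own r was 0.997. For fibroblast replicate 2 the values were 0.916 and 0.906 against 0.982, and embryonic replicate 1 had 0.961 and 0.965 against 0.993. These are correlations across genes, which are no replicates, and they only describe the libraries.

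The 58 members covered nearly the whole range of the embryonic red cell table. Of the 4 genes of that table at or above a scaled FPKM of 1000, 3 were members, and so was 1 of the 4 genes between 100 and 1000. A further 6 members were among the 24 genes between 10 and 100. Of the 339 genes between 1 and 10, 27 were members, and of the 983 between 0.3 and 1, 21 were. The 58 genes together reached a summed scaled FPKM of 255 ± 74.1 in aRBC and 9496 ± 516 in eRBC (SD, n = 3 each). The sum was 545 ± 58.4 (SD, n = 3) in HD3 cells and 203 ± 28.9 (SD, n = 3) in fibroblasts. Most of the embryonic sum came from the top of the ranking, as the 13 members listed in all 4 tables, ranks 1 to 3 among them, made up 90.6% of it. Ranks 1 to 3 also held more than the other members together in aRBC and fibroblasts. In HD3 cells they held 89.1 ± 26.9, against 456 ± 83.8 for the other members (SD, n = 3 each).

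**Figure D1:**
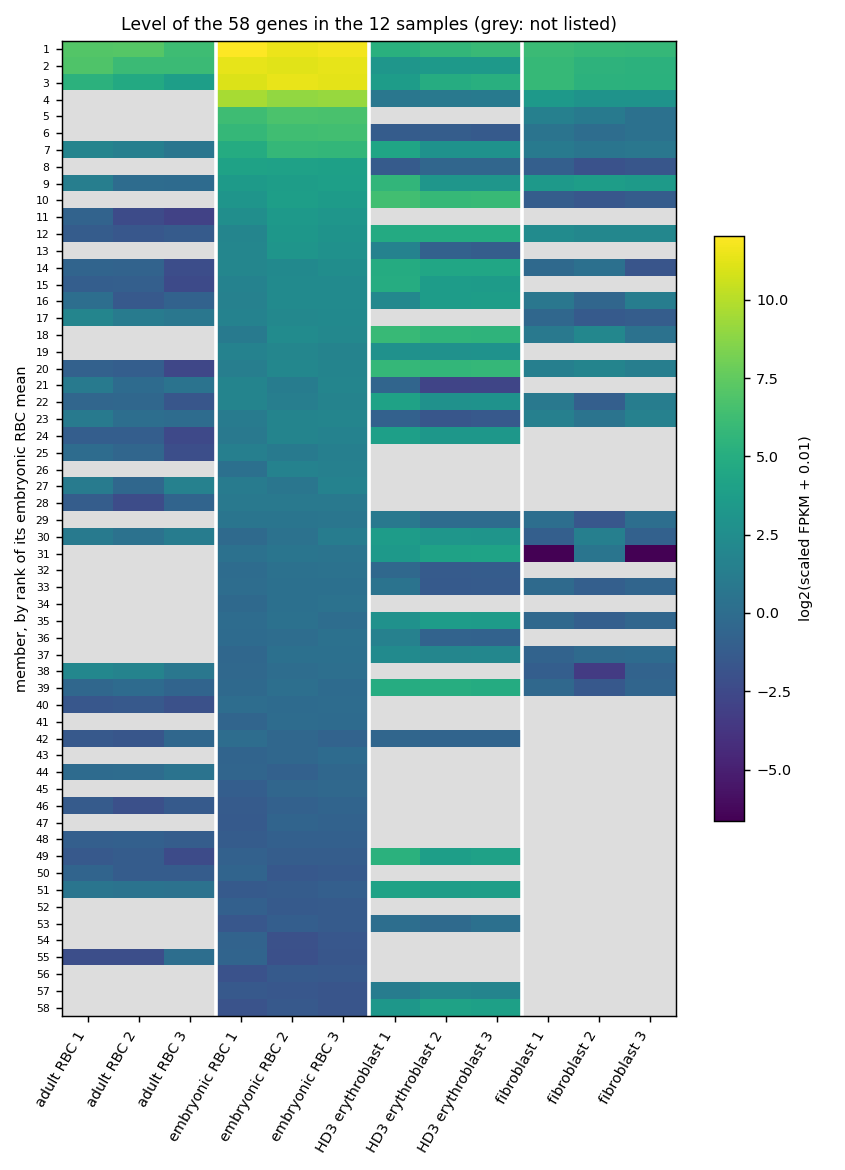
Level of each member (rows, by rank of the embryonic red cell mean) in each of the 12 samples (columns) as log2(scaled FPKM + 0.01), with grey for genes that a table does not list. Ranks 1 to 3 are bright in embryonic red blood cells and visible in every other sample, while all members after rank 39 are grey in fibroblasts.

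The members were listed in the other tables to unequal extents. The adult red cell table held 31 of the 58 (53.4%), against 34.7% of the other 1296 genes of the embryonic table. These adult shares are not like for like, as the members were chosen for high embryonic levels. Embryonic means between 0.3 and 1 were found in 21 of the 58 members, against 983 of all 1354 genes of that table. HD3 cells listed 36 members (62.1%), against 98.9% of the other genes, and fibroblasts listed 26 (44.8%), where the rule itself puts all of the other genes in the fibroblast table. The HD3 shares are thus not like for like, since the rule also admits every gene that fibroblasts do not list. Of the 26 members listed in fibroblasts, HD3 cells listed 23. By combination, 13 members were in all 4 tables, 10 in all but the adult table, 6 in all but the fibroblast table and 2 in all but the HD3 table. Another 10 were listed in both kinds of red blood cells alone, 7 in embryonic red blood cells and HD3 cells, 1 in embryonic red blood cells and fibroblasts, and 9 in embryonic red blood cells only. Those 9 were low, with embryonic means between 0.332 and 2.36.

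**Figure D2:**
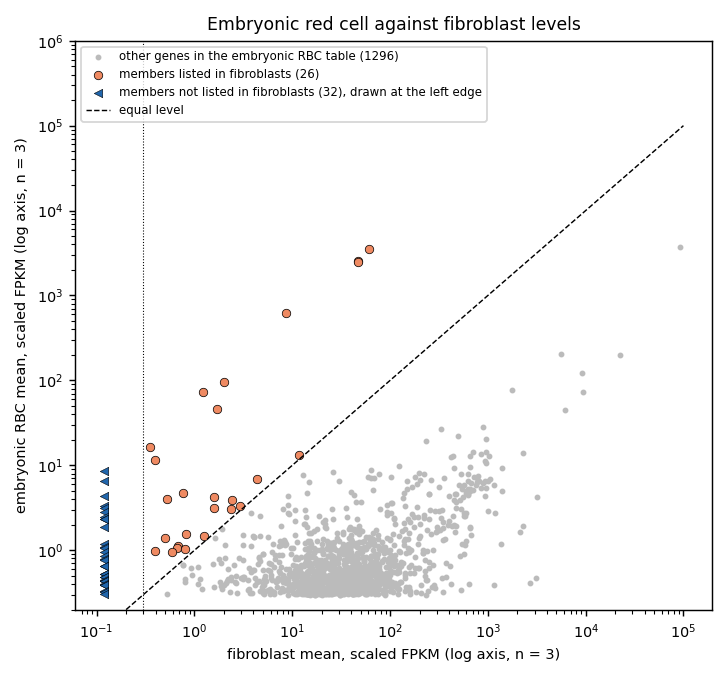
Mean level as scaled FPKM in eRBC (vertical) against fibroblasts (horizontal), both on log axes, for the 1354 genes of the embryonic table. The 26 members listed in fibroblasts lie above the dashed line of equal level, the 32 members not listed there are drawn at the left edge, and the other 1296 genes lie below the line.

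The boundary of the group was not sharp. Among the 26 members listed in fibroblasts, the nearest to it had 13.3 ± 1.62 in eRBC and 11.8 ± 1.37 in fibroblasts (SD, n = 3 each), a ratio of 1.13. Members not listed in fibroblasts have no ratio. The lowest of them had an embryonic mean of 0.309, close to the listing cutoff of 0.3. The nearest gene outside had 1.77 ± 0.583 in eRBC and 1.93 ± 1.22 in fibroblasts (SD, n = 3 each), a ratio of 0.917. Replicates of eRBC lay wholly above those of fibroblasts in 18 of the 26 members listed in both, and the other 8 overlapped. Over all 1322 genes listed in both tables that share was 1.36%, and 96.5% were lower without overlap. The rule chose the members on these values, so nothing is read from the counts. Rank 31 is a member whose fibroblast value depends on 1 library, being listed at 0 in fibroblast replicates 1 and 3 and at 1.5 in replicate 2.

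Ranks 1 to 3 stood 2nd to 4th of all genes in eRBC. Rank 1, ENSGALG00000043234 with a recovered length of 597 bp, had 131, 138 and 74.3 scaled FPKM in adult replicates 1 to 3 and 4222, 2959.7 and 3291 in embryonic replicates 1 to 3. It had 37.5, 54.4 and 64.6 in HD3 cells, and 68.9, 57.5 and 56.1 in fibroblasts. Embryonic values lay far above the rest without overlap, while HD3 and fibroblast values overlapped. Rank 2, ENSGALG00000047152 with 745 bp, had 122, 68.8 and 68.8 in aRBC, 2613, 2364 and 2649 in eRBC, 9.04, 11.2 and 10.9 in HD3 cells, and 58, 43.5 and 40.9 in fibroblasts. On this scale its order was embryonic, adult, fibroblast, HD3, with no overlap between any 2 neighbours. Rank 3, with 546 bp, had 42.1, 25.8 and 14.3 in aRBC, 2167, 2804 and 2488 in eRBC, 12.8, 30.9 and 36.1 in HD3 cells, and 58.6, 41.8 and 39.5 in fibroblasts. Adult and HD3 values of rank 3 overlapped, and so did adult and fibroblast values. In their tables ranks 1, 2 and 3 held places 5, 6 and 18 in aRBC, 168, 1206 and 348 in HD3 cells, and 1015, 1389 and 1419 in fibroblasts. A place in the order of a table is free of the cell-number factor.

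As a share of the summed scaled FPKM of each sample, the members took 16%, 7.78% and 6.29% in adult replicates 1 to 3. In embryonic replicates 1 to 3 they took 54.7%, 64.3% and 66.8%. In HD3 cells they took between 0.386% and 0.652%, and in fibroblasts between 0.0334% and 0.0478%. The 4 cell types did not overlap in this share. Counted in reads on listed genes, without division by length, the members took 9.88% ± 3.26 (SD, n = 3) in aRBC, 58% ± 1.19 (SD, n = 3) in eRBC, 0.533% ± 0.0932 (SD, n = 3) in HD3 cells and 0.0197% ± 0.0017 (SD, n = 3) in fibroblasts. Ranks 1 to 3 alone held 6.46% ± 2.41 (SD, n = 3) of the adult reads, against 50.5% ± 1.14 (SD, n = 3) of the embryonic reads. The lists differ in length, and a shorter list raises every share in it. The cell-number factor cancels within a share, but through the listing cutoff it sets which genes are listed and summed. The rule selected members for high embryonic and low fibroblast values, so the shares in both cell types are set in part by it and carry no test.

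**Figure D3:**
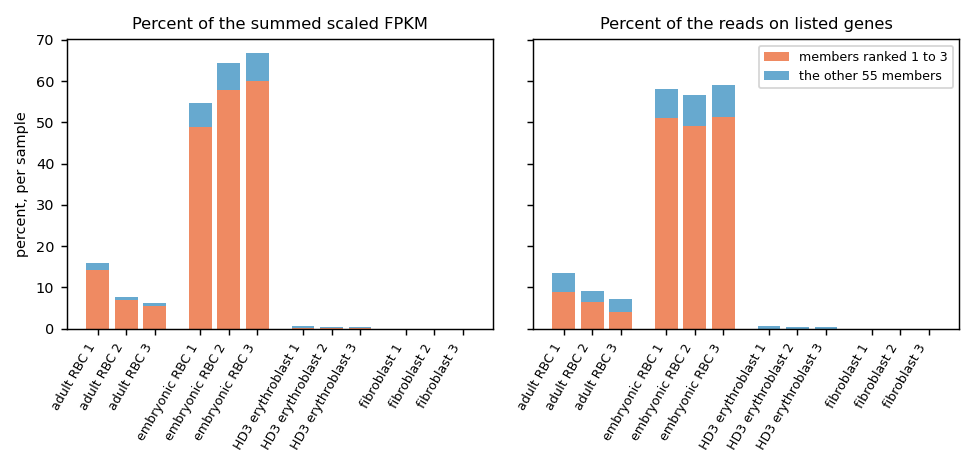
Percent of the summed scaled FPKM (left) and of the reads on listed genes (right) held by the members in each sample, split into ranks 1 to 3 and the other 55. Adult red blood cells stand between 6.29% and 16% of the sum, embryonic red blood cells between 54.7% and 66.8%, and the bars of HD3 cells and fibroblasts are under 1%.

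Ranks 4 to 8 were short genes as well, and 4 of them were not listed in aRBC. Rank 4, with 576 bp, had 785, 526 and 562 scaled FPKM in eRBC, 1.68, 1.89 and 1.93 in HD3 cells, and 10.3, 7.88 and 7.61 in fibroblasts. Adult red blood cells did not list it. The listing cutoff of 0.3 equals 429, 713 and 199 reads of this gene in adult replicates 1 to 3, against 263385, 524748 and 506127 reads counted in embryonic replicates 1 to 3. Rank 5, with 540 bp, had 77.4, 108 and 105 in eRBC and 2.86, 1.93 and 1.24 in fibroblasts, and neither aRBC nor HD3 cells listed it. Rank 6, with 536 bp, had 55.9, 81.5 and 83.0 in eRBC, 0.424, 0.452 and 0.379 in HD3 cells, and 1.44, 1.01 and 1.25 in fibroblasts. Rank 8, with 669 bp, was the steadiest of this set at 17.2, 16.8 and 15.8 in eRBC, and stood below 1 in each HD3 and fibroblast sample. Rank 7, with 1000 bp, was the only one of the 5 listed in all 4 tables, at 3.52, 2.67 and 1.63 in aRBC, 28.6, 56.7 and 52.0 in eRBC, 19.8, 7.18 and 7.35 in HD3 cells, and 1.98, 1.5 and 1.65 in fibroblasts.

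Among the 8 highest members, the proportion to rank 1 overlapped between eRBC and fibroblasts for most, with ranks 4 and 7 as exceptions. Overlap does not show that the proportions are equal. Relative to rank 1 in the same sample, rank 2 stood at 74.1% ± 10.6 in eRBC and 77.6% ± 5.92 in fibroblasts (SD, n = 3 each). Rank 3 stood at 73.9% ± 21.8 and rank 4 at 17.8% ± 0.761 in eRBC, against 76.0% ± 7.86 and 14.1% ± 0.794 in fibroblasts (SD, n = 3 each). Rank 4 did not overlap between eRBC and fibroblasts on this measure. Rank 7 stood at 1.39% ± 0.640 in eRBC and 2.81% ± 0.180 in fibroblasts (SD, n = 3 each), again without overlap. For rank 6 the figures were 2.20% ± 0.767 in eRBC and 2.03% ± 0.245 in fibroblasts (SD, n = 3 each). HD3 cells had other proportions, with rank 2 at 20.5% ± 3.62, rank 3 at 48.9% ± 12.8 and rank 4 at 3.64% ± 0.756 of rank 1 (SD, n = 3 each). In aRBC rank 2 stood at 78.6% ± 25.1 and rank 3 at 23.4% ± 7.69 of rank 1 (SD, n = 3 each). The ratio of the embryonic to the fibroblast mean lay between 26.7 and 72.5 in these 8 genes, with a median of 53.4. In the other 18 members listed in fibroblasts it lay between 1.13 and 29.1, with a median of 1.64. Ranks follow the embryonic mean, so higher ratios at the top of the ranking are in part built in. What sets the fibroblast level of these 8 genes was not tested. Few reads stand behind it below rank 4, with 14, 25 and 13 reads for rank 5 and 3, 4 and 4 reads for rank 8 in fibroblast replicates 1 to 3.

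The comparisons that follow share samples with one another, so their counts are not independent. Adult red blood cells were set against embryonic ones for the 31 members listed in both, as a description, since the embryonic samples served to choose the members. Replicates lay without overlap in 23 of them, 3 higher and 20 lower in aRBC, and 8 overlapped. Over the 481 genes listed in both tables, 7.9% were higher and 42.6% lower without overlap. The median log2 ratio of adult to embryonic means was -1.63 over the 31 members and -0.57 over the 481 genes. By mean, 7 members were higher in aRBC, and 4 when adult replicate 3 and embryonic replicate 1 were both left out. With each sample divided by the median of the 462 genes listed in all 4 tables, 6 members were higher and 16 lower without overlap, against 26% higher and 26.6% lower over the 481 genes.

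Ranks 3, 1, 2 and 11 had the largest drops among the 31. Rank 3 was 90.6-fold lower, rank 1 was 30.5-fold lower and rank 2 was 29.4-fold lower by mean in adult than in eRBC. Rank 11, with 0.617, 0.181 and 0.122 in aRBC against 5.98, 10.9 and 9.11 in eRBC, was 28.3-fold lower and was listed in neither HD3 cells nor fibroblasts. Its fold depends on adult replicate 1, without which it was 57.4-fold lower, against 32.8-fold for rank 1 and 37.0-fold for rank 2. As a share of reads on listed genes, rank 1 took 2.98% ± 1.06 in aRBC and 19.7% ± 2.83 in eRBC (SD, n = 3 each). That of rank 2 was 2.82% ± 1.22 in aRBC and 18.0% ± 1.05 in eRBC (SD, n = 3 each). In ranks 1 and 2 the direction thus held on a measure where the cell-number factor only sets which genes are listed.

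Adult levels without overlap above embryonic ones were seen in ranks 38, 44 and 51. Rank 38, with 2993 bp, had 4.01, 3.30 and 1.72 in aRBC against 0.792, 1.03 and 1.12 in eRBC, and stood at 0.394 ± 0.278 (SD, n = 3) in fibroblasts. Rank 51, with 4158 bp, had 1.49, 1.38 and 1.29 in aRBC against 0.379, 0.413 and 0.505 in eRBC. HD3 cells had more of it than either on the cell-number scale, at 17.5, 13.8 and 13.9. As a share of reads on listed genes it was highest in aRBC, at 0.249% ± 0.0372 in aRBC, 0.0171% ± 0.0031 in eRBC and 0.0366% ± 0.00516 in HD3 cells (SD, n = 3 each). The adult list is the shortest, which raises the shares in it. Rank 44, with 2642 bp, had 0.910, 0.968 and 1.35 in aRBC against 0.686, 0.548 and 0.739 in eRBC and was in no other table. Close levels in both kinds of red blood cells were found in rank 48, a gene of 85 bp, with 0.487 ± 0.0419 in adult and 0.486 ± 0.0539 in eRBC (SD, n = 3 each), and in rank 27, with 1.96 ± 1.13 in adult and 2.34 ± 0.785 in eRBC (SD, n = 3 each). For those the replicates overlapped, which does not show that the levels are equal.

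**Figure D4:**
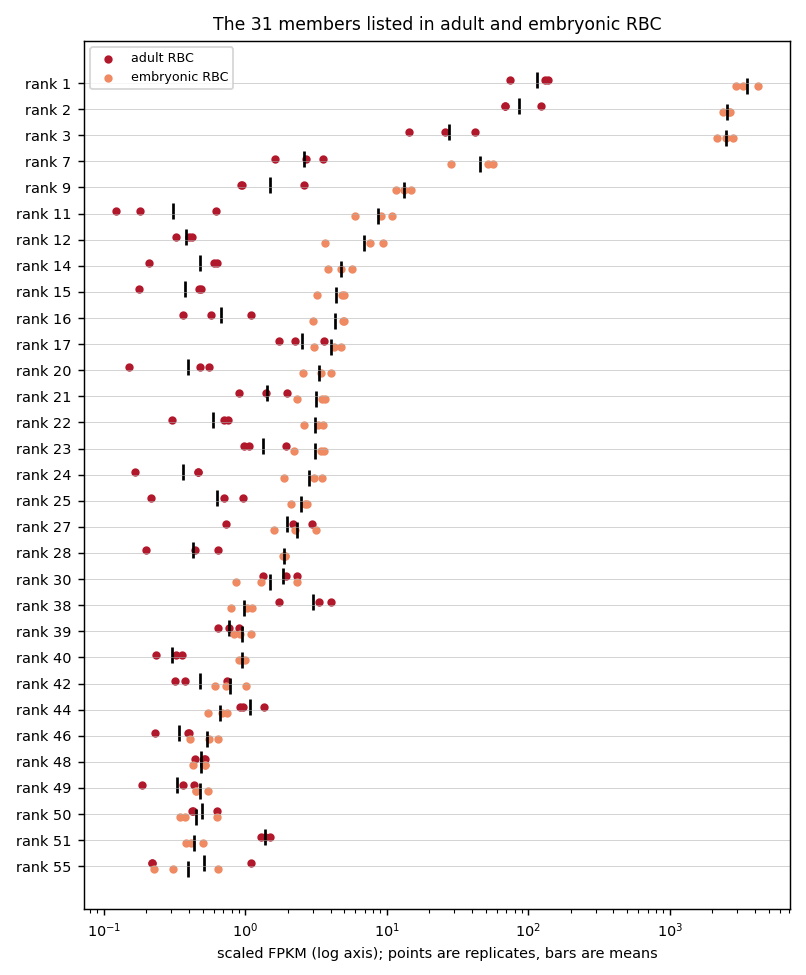
Scaled FPKM (log axis) of the 31 members listed in both kinds of red blood cells, with a point per replicate and a bar at each mean, adult above embryonic in each row. Adult points lie left of the embryonic ones in most rows, by 29.4-fold to 90.6-fold in ranks 1 to 3, and right of them in ranks 38, 44 and 51.

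The 27 members absent from the adult table had embryonic means between 0.309 and 624, with a median of 1.09. Ranks 4, 5, 6, 8 and 10 were among them, so absence was not confined to genes close to the cutoff. Rank 10, with 8.39, 14.2 and 12 in eRBC, had 82.8, 59.0 and 60.6 in HD3 cells and 0.450, 0.319 and 0.421 in fibroblasts.

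Embryonic red blood cells were next set against HD3 erythroblasts, again without a test, for the 36 members in both tables. The rule chose members for high embryonic values, so an excess of members higher in eRBC is built in on either scale. Nothing is read from the member counts against those of all genes. Embryonic values were higher without overlap in 11 members and lower in 19, and 6 overlapped. Of the 1318 genes that both tables list, 1.06% were higher and 95.1% lower without overlap, and 11 of the 14 higher genes were members. The median log2 ratio of embryonic to HD3 means was -1.33 over the members and -3.94 over all 1318 genes. After division of each sample by the median of the 462 shared genes, 27 members were higher and 5 lower without overlap, against 29% higher and 38.8% lower over the 1318 genes. The 11 higher members were ranks 1, 2, 3, 4, 6, 7, 8, 13, 21, 23 and 32. Rank 4 was 341-fold and rank 2 was 245-fold higher in eRBC than in HD3 cells by mean. Rank 21, the longest member with 7519 bp, had 3.49, 2.30 and 3.63 in eRBC and 0.690, 0.133 and 0.139 in HD3 cells. Its HD3 value was set by replicate 1, as was that of rank 13, which had 3.85, 8.57 and 7.17 in eRBC and 3.08, 0.545 and 0.456 in HD3 cells.

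No member above rank 9 had a higher mean in HD3 cells than in eRBC. For rank 9 the ratio of the HD3 to the embryonic mean was 1.76, with overlapping replicates, and 0.690 without HD3 replicate 1. The 22 members with their highest mean in HD3 cells had embryonic means between 0.309 and 13.3. Rank 49 had 0.542, 0.449 and 0.447 in eRBC against 39.4, 13.9 and 16.1 in HD3 cells, 48.3-fold higher in HD3 cells by mean and 31.4-fold without HD3 replicate 1. Rank 58, the last member, had 0.266, 0.371 and 0.289 in eRBC against 9.63, 17.7 and 15.5 in HD3 cells, 46.2-fold higher in HD3 cells. Rank 39 had 0.835, 1.10 and 0.912 in eRBC against 29.8, 31.6 and 28.9 in HD3 cells. Its adult values, 0.765, 0.903 and 0.637, overlapped with the embryonic ones.

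By cell type of the highest mean, 5 members peaked in aRBC, 31 in eRBC, 22 in HD3 cells and, by the rule, 0 in fibroblasts. Of all 1354 genes in the embryonic table, 0.369% had their highest mean in aRBC, 2.29% in eRBC, 7.98% in HD3 cells and 89.4% in fibroblasts. A gene with its highest mean in eRBC is a member by the rule. The 31 are therefore all such genes of the table, and nothing is read from that count. Relative to the median of the 462 shared genes, 11 members peaked in aRBC, 42 in eRBC and 5 in HD3 cells. On that scale 13.1% of all genes in the embryonic table peaked in aRBC, 28.7% in eRBC and 26.9% in HD3 cells. By share of the summed scaled FPKM, 18 members peaked in aRBC, 33 in eRBC and 7 in HD3 cells, against 24.2% in aRBC, 12.9% in eRBC and 40.1% in HD3 cells over all genes of that table. The counts in aRBC, eRBC and HD3 cells all moved with the scaling. On each scale the choice of members for high embryonic values favours a peak in eRBC. Nothing is therefore read from the members against all genes.

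Adult red blood cells against HD3 erythroblasts is the pair of cell types whose samples took no part in choosing the members, and it was tested with limma on log2(scaled FPKM + 1). A gene entered only when both tables listed it and its mean over the 6 samples reached 1. Of the 16 members tested, 1 rose and 13 fell in aRBC, and 2 did not pass the threshold. Among those that fell, ranks 12, 14, 15, 16, 20, 22, 24, 39 and 49 had adult means between 0.328 and 0.768. They could reach the minimum mean only through HD3 cells, so their direction was set by entry and nothing is read from it. Over all 673 genes tested 88% changed, 0.297% higher and 87.7% lower in aRBC, so the share of members that fell is near that of all genes. The median log2 fold change was -2.83 over the members and -2.42 over the 673 genes. Many of the 673 genes likewise had adult means under 1 and entered only through HD3 cells. Nothing is therefore read from these shares and medians. The 2 genes that rose among the 673 included 1 member, and 1 gene rose without HD3 replicate 3. These directions depend on the scaling. After centring of every sample at its median gene, 3 of the 16 members were higher and 6 lower, against 175 higher and 177 lower over all genes. With samples rescaled to the same sum over the 673 genes, 5 members were higher and 1 lower, against 183 higher and 91 lower over all genes. With limma voom on recovered reads 10 members were higher and 0 lower, against 471 higher and 56 lower over all genes. Library sizes for limma voom were the reads on all genes of each list. The adult list is far shorter (804 genes against 10303 in HD3 cells), which raises adult values in that fit. The median log2 fold change of all genes was 0.21 with median centring, 0.63 with equal sums and 2.30 with limma voom. The entry rule left out 42 of the 58 members. Ranks 21, 23 and 42 were in both tables and missed only the minimum mean. Adult values lay above HD3 values without overlap in rank 21 (means 1.42 and 0.320) and rank 23 (1.32 and 0.409), and overlapped in rank 42. Without the minimum mean, 77.8% of 760 genes changed, and of 19 members 1 was called higher and 13 lower.

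ENSGALG00000047152, rank 2, was the member that rose. It averaged 86.6 ± 30.8 in aRBC and 10.4 ± 1.17 in HD3 cells (SD, n = 3 each), and its log2 fold change was 2.89 ± 0.374 (SE; limma adjusted p = 9.69e-05). The 3 adult values were all above the 3 HD3 values, and the gene passed in each of the 12 alternatives. Rank 1, ENSGALG00000043234, averaged 114 ± 35.0 in aRBC and 52.2 ± 13.7 in HD3 cells (SD, n = 3 each). The log2 fold change, 1.10 ± 0.487 (SE), missed the threshold (limma adjusted p = 0.0581), although the replicates did not overlap. Without adult replicate 3 the same gene passed at 1.38 (limma adjusted p = 0.0162), and it passed in 4 of the 12 alternatives, with adjusted p between 3.49e-14 and 0.208. The other 3 were equal sums, median centring and limma voom. Rank 3 stood at 0.04 ± 0.530 (SE; limma adjusted p = 0.940) and passed, higher, under those same 3. Relative to the median of all tested genes these log2 fold changes were 5.31 for rank 2, 3.52 for rank 1 and 2.46 for rank 3.

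The strongest decreases were those of ENSGALG00000040279, rank 20 with 1194 bp, and ENSGALG00000007447, rank 12 with 3079 bp. Their adult means, 0.392 and 0.381, were near the listing cutoff of 0.3. Both genes thus entered the test only through HD3 cells, and their direction was set by entry. ENSGALG00000040279 had 0.550, 0.475 and 0.151 scaled FPKM in aRBC against 56.7, 53.2 and 54.7 in HD3 cells. All adult values lay below all HD3 values, by -5.34 ± 0.228 on the log2 scale (SE; limma adjusted p = 5.59e-07). It had 3.34 ± 0.742 in eRBC and 2.91 ± 0.474 in fibroblasts (SD, n = 3 each). As a share of reads on listed genes, its values were 0.0207% ± 0.0121 in aRBC, 0.0380% ± 0.00975 in eRBC, 0.0382% ± 0.00124 in HD3 cells and 0.000356% ± 5.89e-05 in fibroblasts (SD, n = 3 each). On that measure eRBC and HD3 cells overlapped. ENSGALG00000007447 had 0.417, 0.323 and 0.402 in aRBC against 26.8, 28.5 and 28.7 in HD3 cells, again without overlap. On the log2 scale the difference was -4.39 ± 0.187 (SE; limma adjusted p = 5.59e-07). Relative to the median of all tested genes the values were -2.92 for ENSGALG00000040279 and -1.97 for ENSGALG00000007447. With limma voom on recovered reads neither passed, at -0.97 for ENSGALG00000040279 and -0.01 for ENSGALG00000007447, and with equal sums ENSGALG00000007447 did not pass at -1.35. The other 11 members that fell had log2 fold changes between -4.14 and -1.68. Rank 9 is the widest of them, with 2.59, 0.944 and 0.927 in aRBC against 51.6, 9.10 and 9.25 in HD3 cells, where replicate 1 stood far above the other HD3 replicates.

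**Figure D5:**
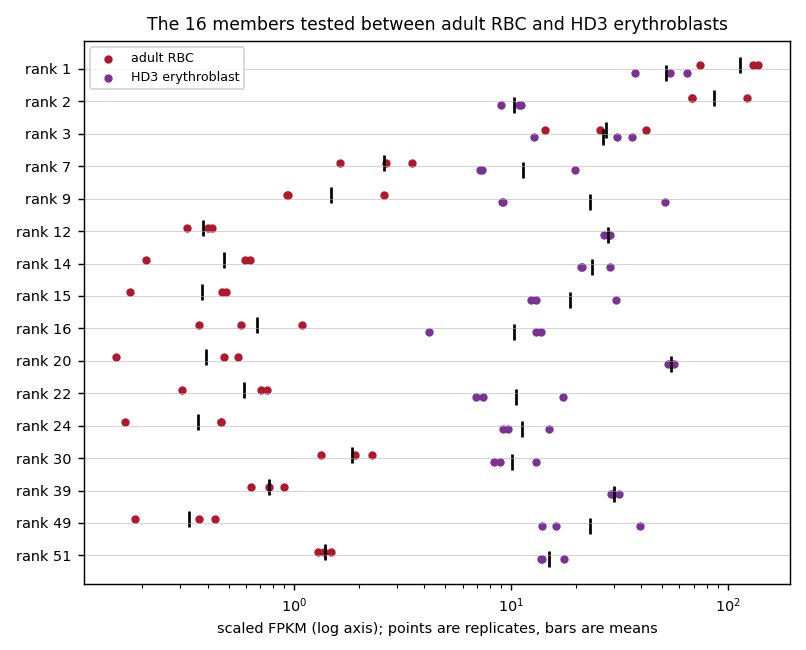
Scaled FPKM (log axis) of the 16 members tested between adult red blood cells and HD3 erythroblasts, a point per replicate and a bar at each mean, adult above HD3 in each row. Adult points lie right of the HD3 points in ranks 1 and 2, mix with them in rank 3, and lie left of them in the other 13 rows.

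HD3 erythroblasts and fibroblasts both listed 23 members. HD3 values were higher without overlap in 13 and lower in 5, against 2.66% higher and 84.8% lower over the 9899 genes listed in both, and fibroblast samples had helped to choose the members. Relative to the median of the 462 shared genes, 18 members were higher and 1 lower without overlap, against 20.4% higher and 34.3% lower over the 9899 genes. The 5 lower members were ranks 2, 3, 4, 6 and 23. Rank 10 was the clearest of the higher members, at 67.5 ± 13.3 in HD3 cells and 0.396 ± 0.0690 in fibroblasts (SD, n = 3 each).

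Gene length cancels when the rule compares a gene between 2 cell types, but it enters the ranking and the listing cutoff. Both use scaled FPKM, a value per length, which by itself lifts short genes. In embryonic replicate 1, rank 8 with 669 bp had 6701 reads and rank 9 with 3002 bp had 20378. The split in length within the ranking is therefore given only as a description. Ranks 1 to 8 had recovered lengths between 536 and 1000 bp, with a median of 586.5 bp, and 7 of the 8 were shorter than 1000 bp. Over all 58 members the median was 1611.5 bp, with a range from 85 to 7519 bp, against a median of 2151 bp in the 1296 other genes of the embryonic table. Genes shorter than 1000 bp made up 20.7% of the members, 20.7% of those other genes, and 10% of ranks 9 to 58.

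Embryonic replicates differed in a way shared with the rest of the table. Replicate 1 was the lowest of the 3 in 40 of the 58 members (69.0%), and in 73.3% of all 1354 genes. The coefficient of variation of the members in eRBC had a median of 19.3%, against 23.7% in the other genes, and ranged from 1.27% in rank 29 to 55.8% in rank 55. Rank 55 rested on single libraries in both kinds of red blood cells, with 0.218, 0.22 and 1.09 in adult and 0.641, 0.227 and 0.310 in eRBC. In aRBC replicate 3 was the lowest in 19 of the 31 members listed (61.3%) and in 51.7% of all 804 genes.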

How the data were processed

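Per the labels' protocols, TRIzol total RNA was depleted of ribosomal RNA and made into stranded libraries. The submitters' processing notes name STAR 2.7.2b, featureCounts and the build GRCg6a. The authors deposited FPKM values, scaled to cell number per the name of each table. The factor is not given in the sources used here. Columns were matched to samples by description, and 0 per-sample columns stayed unmatched. Members and tests were chosen with earlier results of these data known.

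Since each value equals reads over gene length, times a factor of its library, lengths and reads were recovered for 100% of listed genes (tolerance 0.002 of a read). This share is partly fixed by the search. A recovered length can be too short by a common divisor. Fibroblast constants gave whole library totals.

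Adult red blood cells and HD3 cells were compared with limma 3.58.1 in R 4.3.3 on log2(FPKM + 1) with a mean-variance trend, two-sided. Genes entered when both tables list them and their mean over the 6 samples reached 1 (673 genes). This scale understates changes of low genes. A gene was called at a Benjamini-Hochberg adjusted p under 0.05 where the log2 fold change was 1 or more in size. IDs are printed for the 2 members with the highest and the 2 with the lowest fold change, members past the test before others. Gene copies sharing reads were not checked. Members named beyond these by rank were chosen after their values were seen.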

Additional observations from a re-analysis of the deposited data

How the results depend on the processing

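The 58 members became 462 with each sample rescaled to the same sum over all genes of its list. They became 626, in an alternative chosen after seeing the data, relative to the median of the genes in all 4 tables. Both sets held all 58; the first count equals the number of genes in all 4 tables only by coincidence. There were 26 with genes listed in both tables only and 37 with an embryonic mean of at least 1. With a replicate left out there were 57 to 60. With every embryonic replicate above every fibroblast replicate there were 50. Of these 50, 32 are not listed in fibroblasts and passed with no fibroblast value to compare. Between adult red blood cells and HD3 cells the 592 changed genes became 274 with equal sums over the tested genes and 352 with median centring. The 14 changed members became 6 and 9. The members' median log2 fold change of -2.83 became -3.79 with a pseudocount of 0.1 and -0.20 with median centring, and turned to 0.58 with equal sums and 2.23 with limma voom on recovered reads. The cause was not tested. With a replicate left out, 565 to 601 genes and 14 or 15 members changed, with a median between -3.00 and -2.73 over the members. Replicate numbers did not pair the samples, with correlations of deviations of -0.03, 0.01 and 0.06 for the same number, and the fit with a replicate block called 596 genes and 14 members. The 7 members with a higher adult than embryonic mean became 4 without adult replicate 3 and embryonic replicate 1. Ratios of means with each replicate left out were also chosen after seeing the data, and that of HD3 cells to eRBC for rank 9 ranged from 0.690 without HD3 replicate 1, where it turned, to 2.29 without HD3 replicate 2. Depth limits the fibroblast values, where a member had a median of 17 to 40 reads per library.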
